A study of Mus musculus with 6 samples.

Results

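The nuclear genes for respiratory complexes III and IV, ATP synthase and cytochrome c were followed in sorted spermatocytes labelled Srp68 SKO or wild type. They were taken by symbol from the protein-coding rows of the count table (names that start with Uqcr, Atp5 or Cox4 to Cox8, plus Cyc1, Cycs and Cyct), which gave 46 of the 49584 genes listed. GENCODE vM21 holds 47 such genes, and the remaining entry, a further identifier named Atp5o, was not used here. The libraries were 3 SKO and 3 wild type libraries of leptotene and zygotene spermatocytes, isolated from testes of mice at postnatal day 12 by fluorescence-activated sorting and read by Smart-seq2 of poly(A) RNA. Srp68 codes for a protein of the signal recognition particle, the complex that guides ribosomes to the endoplasmic reticulum when they make secreted or membrane proteins. The sources used here do not give the allele, any Cre driver, the strain or the number of animals behind a library. Nothing says that replicates came from separate animals, so p-values here speak of the spread between libraries, which may be technical.

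Complex III passes electrons from ubiquinol to cytochrome c, complex IV (cytochrome c oxidase) passes them on to oxygen, and ATP synthase makes ATP with the proton gradient that the chain builds. A few subunits of these complexes are encoded in the mitochondrial genome, and all others are nuclear genes whose proteins are imported into the organelle. Here core subunits are those that carry or frame the catalytic parts: cytochrome c1, the Rieske protein and the 2 large core proteins of complex III, and the F1 head and the c ring of ATP synthase. Accessory subunits are all other nuclear subunits, among them the peripheral stalk of ATP synthase. Every nuclear subunit of complex IV was counted with them because its catalytic core is mitochondrially encoded. Male germ cells are known for testis isoforms of several of these proteins (Cox6b2, Cox7b2, Cox8c and cytochrome c testis, Cyct), which replace a common isoform as meiosis proceeds.

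Total counts ran from 14.25 to 15.38 M in wild type and from 11.85 to 12.73 M in SKO libraries. Library correlations (log2 scale) were 0.945 to 0.961 within and 0.905 to 0.929 between genotypes. Srp68 itself stood at 21.7, 29.2 and 22.6 CPM (counts per M counts of the library, scaled by the TMM method) in wild type and at 12.1, 6.51 and 6.93 in SKO replicates 1 to 3, with no overlap (log2 fold change −1.52, SE 0.28, edgeR adjusted p = 0.00107). Markers of leptotene and zygotene cells were abundant in every library, and 7 of 9 were higher and 1 lower in SKO (median log2 fold change 0.74). They ran from −0.36 for Spo11, the lower one, to 2.28 for Stra8, with a mean of 99.9 CPM in wild type and 486 in SKO. Under the 2 corrections for GC content and length given further on, 4 of these 9 were higher and 2 lower by exon union (median 0.13). By main transcript 5 were higher and 2 lower (median 0.26). Stra8 stayed higher (2.36 by exon union and 2.64 by main transcript) and Spo11 stayed lower (−0.36 and −0.34). Of the 4 testable pachytene or later markers 3 were lower and 1 was higher (summed level of all 8 from 89.9 to 128 CPM in wild type and from 29.6 to 32.9 in SKO). The 6 spermatogonia markers summed to 327, 383 and 342 CPM in wild type and 289, 218 and 218 in SKO, without overlap. Uchl1 alone read 207.5, 224.5 and 212 CPM and then 148.6, 98.7 and 107.3. Of the 5 testable, Uchl1 was lower (−0.86, edgeR adjusted p = 0.000482) and 4 did not pass. By exon union Uchl1 did not pass (−0.31, edgeR adjusted p = 0.061), and 1 of the other 4 passed as higher. By main transcript Uchl1 passed as lower (−0.37, edgeR adjusted p = 0.0284). Summed markers of Sertoli cells were at 7.22 to 13.9 CPM in wild type and 8.1 to 25.9 in SKO, Leydig markers (1 of 4 at 0 in every library) at 0.58 to 6.6 and 4.86 to 9.03, myoid markers at 1.04 to 2.32 and 4.44 to 13.3, macrophage markers at 0 to 2.13 and 0.558 to 4.33, endothelial markers at 0.387 to 0.869 and 0.372 to 0.674, and erythroid markers at 2.38 to 105 and 27.1 to 117. In bulk libraries, fewer cells of a stage and less RNA per cell cannot be told apart, and the part of stage or of other cells in the results below was not tested.

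Nearly all accessory subunits were higher in SKO spermatocytes, while 6 of the 12 core subunits, among them Cyc1, Uqcrc1 and the F1 alpha and beta subunits, were lower. Of those 6, only Cyc1 and Uqcrc2 stayed lower under both corrections for GC content and length given further on. Of 28 testable accessory subunits, 22 were higher by exon union and 18 by main transcript. Of the 46 genes, 44 passed the filter on low counts, and Cox4i2 and Cox8b did not. Cox6a2 passed it only through its SKO libraries and is among the genes counted as higher, here and for complex IV. In edgeR's quasi-likelihood test (Benjamini-Hochberg adjusted p under 0.05 over all 13474 genes tested), 31 of the 44 were higher in SKO, 8 were lower and 5 did not pass. Across all tested genes 28.5% were called, 14.1% higher and 14.4% lower. Among 28 testable accessory subunits 26 were higher and 2 lower (median log2 fold change 0.78). Among the 12 core subunits 3 were higher, 6 lower and 3 did not pass (median −0.39), where the median over all tested genes was −0.03. The SKO libraries lay wholly above wild type for 31 of the 46 genes and wholly below for 9, where 21.6% and 22.2% of all tested genes did so. As a share of all counts, without TMM scaling, the core genes took 0.512, 0.541 and 0.504% in wild type and 0.457, 0.416 and 0.414% in SKO libraries. The accessory genes took 1.71, 1.69 and 1.84% and then 2.27, 2.41 and 2.52%. On the TMM scale the summed core genes overlapped, at 4701, 4820 and 4720 CPM in wild type and 4785, 4604 and 4721 in SKO. The accessory genes did not, at 15750, 15040 and 17240 CPM and then 23770, 26670 and 28770.

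**Figure D1:**
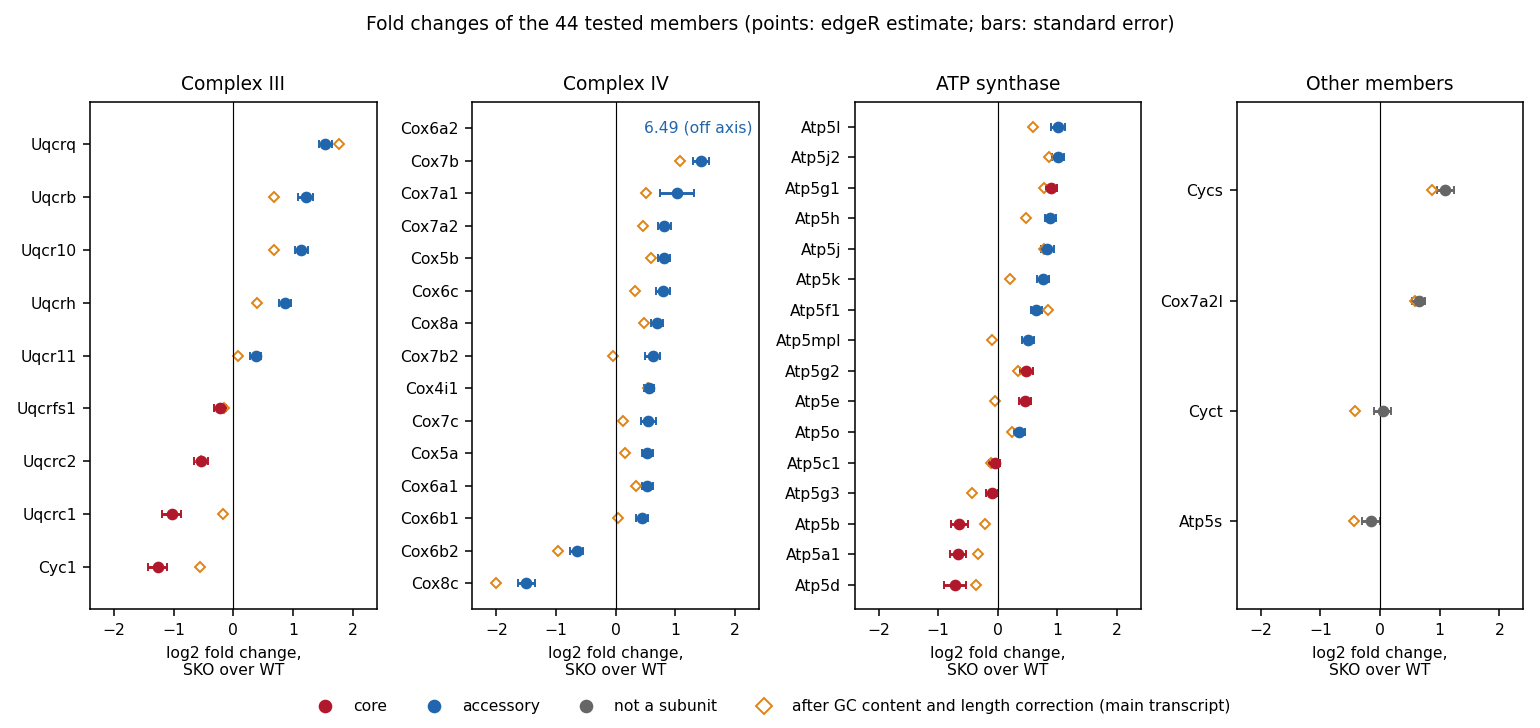
Log2 fold change (SKO over wild type, x axis) of each of the 44 testable genes, one panel per complex; filled points are edgeR estimates with standard errors, open diamonds the estimates after correction for GC content and length of the main transcript. All 5 accessory genes of complex III lie right of 0 and its 4 core genes left of it, and for complex IV Cox6b2 and Cox8c alone lie left of 0 before correction; Cox6a2 (6.49) is beyond the axis.

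Other nuclear genes of mitochondrial and ribosomal proteins give the setting. Of 36 testable complex I subunits, 28 were higher and 3 lower (median 0.54), of 77 mitochondrial ribosomal proteins 31 were higher and 11 lower (median 0.16), and of 82 cytosolic ribosomal proteins 70 were higher and 1 lower (median 0.81). The accessory median of 0.78 thus lay near that of the cytosolic ribosomal proteins. With library totals in place of TMM scaling, the median of all tested genes moved to −0.29 and the calls over all genes from 1901 higher and 1937 lower to 1010 (7.5%) and 3168 (23.5%). The 44 genes then split into 25 higher and 12 lower, the accessory subunits into 22 and 2 (median 0.51) and the core subunits into 1 and 9 (median −0.64).

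Complex III split by role. Cyc1 (ENSMUSG00000022551, cytochrome c1, which hands electrons to cytochrome c; chromosome 15, 76343523 to 76346260, GRCm38 as for all positions here) read 250, 303 and 242 CPM in the wild type libraries, in the order of replicates 1 to 3 as in all such lists here, and 140, 97.2 and 92.2 in SKO. Every SKO library was below every wild type library, and the log2 fold change was −1.27 (SE 0.15, edgeR adjusted p = 4.8e-05). Uqcrc1 (ENSMUSG00000025651, core protein 1; chromosome 9, 108936633 to 108949623) read 343, 314 and 275 CPM and then 196, 133 and 125, again without overlap (−1.03, SE 0.16, edgeR adjusted p = 0.000234). Uqcrc2 (ENSMUSG00000030884, core protein 2; chromosome 7, 120635176 to 120659524) read 290, 260 and 272 CPM and then 208, 194 and 161 (−0.54, SE 0.12, edgeR adjusted p = 0.00291). SKO replicate 1 was the highest SKO library for all 3 of these genes, and it also held the most Srp68 of the SKO libraries; a relation between them was not tested. Uqcrfs1, the Rieske iron-sulfur protein, read 264, 264 and 288 CPM in wild type and 237, 232 and 227 in SKO; the groups did not overlap, yet the gene did not pass (−0.23, SE 0.10, edgeR adjusted p = 0.0985). It passed as lower with library totals (−0.49, edgeR adjusted p = 0.00166). The core proteins Uqcrc1 and Uqcrc2 carry no redox centre, and both fell with Cyc1, which carries a haem.

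The 5 accessory subunits of complex III were all higher. Uqcrq (ENSMUSG00000044894, ubiquinone-binding subunit; chromosome 11, 53427922 to 53430831) read 528, 494 and 585 CPM in wild type and 1332, 1628 and 1719 in SKO replicates 1 to 3. Its lowest SKO value was above its highest wild type value by a wide gap (log2 fold change 1.54, SE 0.11, edgeR adjusted p = 1.02e-06), and no other of the 44 genes rose as much except Cox6a2. Uqcrb (ENSMUSG00000021520, chromosome 13, 66900617 to 66905378), which sits near the quinone site, went from 388, 359 and 455 CPM to 809, 922 and 1048 (1.21, SE 0.12). Uqcr10 (ENSMUSG00000059534, chromosome 11, 4701973 to 4704342), a small subunit beside cytochrome c1, went from 427, 372 and 451 CPM to 795, 913 and 1046 (1.14, SE 0.12). The remaining pair, Uqcrh, the acidic hinge protein that helps cytochrome c1 meet cytochrome c, and Uqcr11, rose by 0.86 and 0.38. The SKO mean of Uqcr10 was 220% of its wild type mean, and that of Cyc1 was 41.4%.

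**Figure D2:**
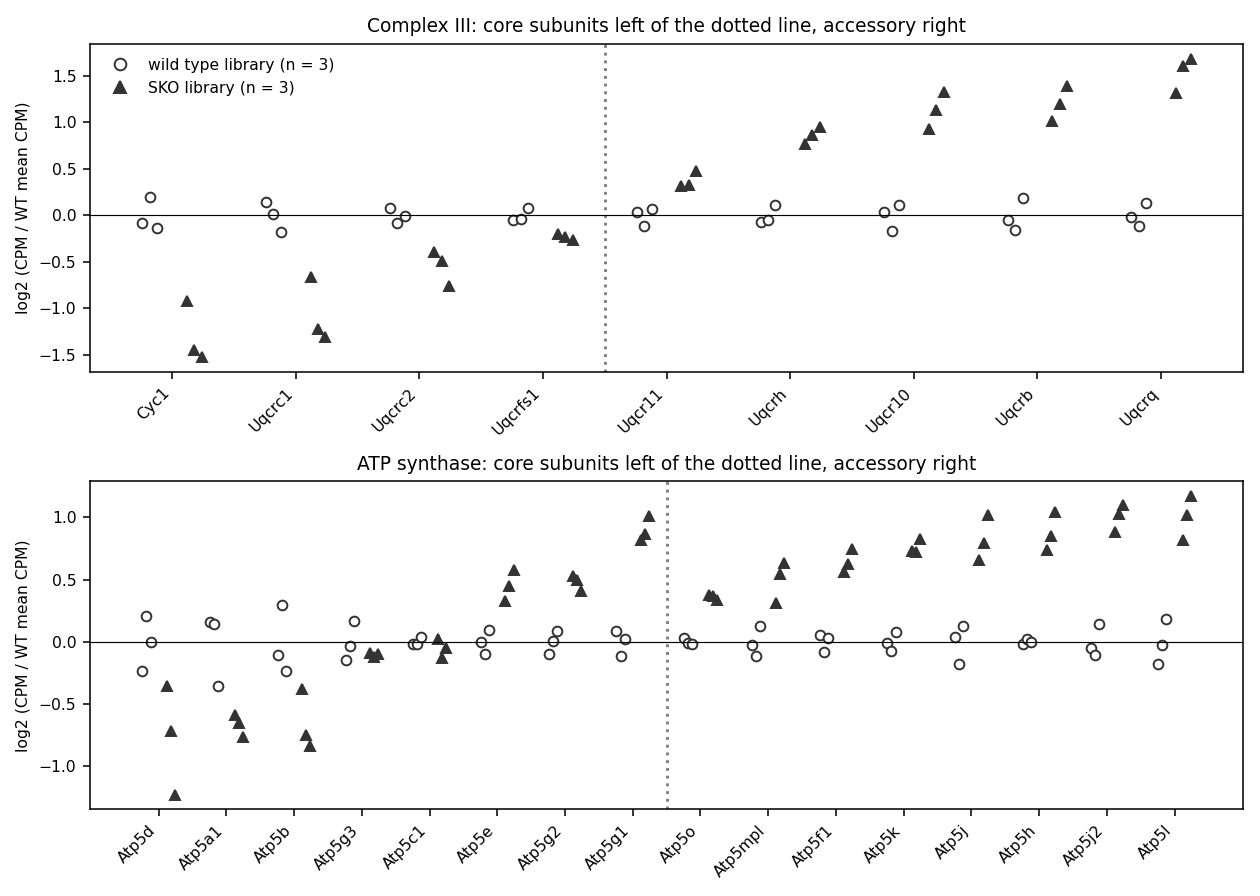
Log2 of each library's CPM over the wild type mean of the same gene for complex III (top) and ATP synthase (bottom); open circles are the 3 wild type and triangles the 3 SKO libraries, with core genes left of the dotted line. SKO triangles are below the circles for the 4 core genes of complex III and above them for its 5 accessory genes, while in ATP synthase the core genes run from Atp5d, lowest, to Atp5g1, highest.

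Subunits of ATP synthase divided within the core. The F1 head turns ATP over: 3 alpha and 3 beta subunits around a gamma shaft, with delta and epsilon at its foot. Atp5b (ENSMUSG00000025393, beta, with the catalytic sites; chromosome 10, 128083273 to 128090391) read 476, 628 and 435 CPM in wild type and 393, 305 and 286 in SKO (−0.64, SE 0.15, edgeR adjusted p = 0.00456). Atp5a1 (alpha) read 357, 355 and 250 CPM and then 213, 204 and 189 (−0.67, SE 0.13, edgeR adjusted p = 0.00185). Both lay wholly below wild type. Atp5d (ENSMUSG00000003072, delta; chromosome 10, 80138632 to 80145818) read 124, 169 and 145 CPM and then 114, 88.9 and 62.3 (−0.72, SE 0.19, edgeR adjusted p = 0.00955), and without wild type replicate 2 it no longer passed (edgeR adjusted p = 0.0509). Atp5c1 (gamma) overlapped between genotypes at 486, 485 and 504 CPM and 499, 449 and 476 (−0.05, SE 0.09). Atp5e (epsilon), the smallest of the 5, was higher instead, from 936, 876 and 1002 CPM to 1175, 1278 and 1398 (0.45, SE 0.10, edgeR adjusted p = 0.00289).

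The 3 genes for the c ring, the rotor in the membrane, encode the same mature protein with different import sequences. Atp5g1 (ENSMUSG00000006057, chromosome 11, 96068852 to 96075670) went from 494, 431 and 474 CPM to 820, 850 and 939, above wild type in every SKO library (0.90, SE 0.10, edgeR adjusted p = 1.93e-05). Atp5g2 (ENSMUSG00000062683, chromosome 15, 102662864 to 102672352) went from 158, 170 and 179 CPM to 243, 238 and 223 (0.48, SE 0.10, edgeR adjusted p = 0.00349). Atp5g3 (ENSMUSG00000018770, chromosome 2, 73908447 to 73911326) overlapped at 526, 568 and 654 CPM and 547, 535 and 543 (−0.11, SE 0.10, edgeR adjusted p = 0.479), but it passed as lower with library totals (−0.37, edgeR adjusted p = 0.00877) and after the main transcript correction given further on (−0.43, edgeR adjusted p = 0.00307). Of c-ring counts per kilobase of exon, Atp5g3 thus gave 57.6 ± 2.16% in wild type and 43.9 ± 0.579% in SKO (SD, n = 3 each), and Atp5g1 20.6 ± 2.16% and 31.3 ± 1.86%. For each of the 3 genes the shares of the genotypes did not overlap (two-sided exact permutation p = 0.1, the smallest that 3 against 3 libraries can give; 0.125 after Benjamini-Hochberg adjustment over 10 shares). The share of Atp5g2 overlapped between genotypes when counts were not scaled by length.

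All 8 accessory subunits of ATP synthase were higher at TMM scaling, by 0.36 to 1.01 on the log2 scale; with library totals 7 were, without Atp5o (0.10, edgeR adjusted p = 0.398), and after the main transcript correction 6 were. Atp5l (ENSMUSG00000038717, subunit g of the membrane part; chromosome 9, 44912557 to 44920742) read 276, 307 and 355 CPM in wild type and 552, 635 and 703 in SKO (1.01, SE 0.12). Atp5j2 (ENSMUSG00000038690, subunit f; chromosome 5, 145183698 to 145192062) read 460, 444 and 528 CPM and then 881, 974 and 1023 (1.01, SE 0.10). Subunits g and e (Atp5k, 0.76) are known for holding ATP synthase dimers together, and Atp5mpl, a small proteolipid, rose by 0.50. These are the genes that did not pass by main transcript: Atp5k was at 0.21 (edgeR adjusted p = 0.0915) and Atp5mpl turned to −0.09 (edgeR adjusted p = 0.484). The peripheral stalk, which keeps the head from turning with the rotor, had 4 of 4 genes higher: Atp5h (d) by 0.88, Atp5j (F6) by 0.83, Atp5f1 (b) by 0.65 and Atp5o (the oligomycin sensitivity protein) by 0.36.

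Complex IV was higher in 13 of its 15 testable nuclear subunits at TMM scaling, and the 2 lower ones, Cox8c and Cox6b2, are testis isoforms. With library totals 11 were higher. After the corrections for GC content and length given further on, 10 were higher by exon union and 8 by main transcript. The same 2 were lower in each. All 10 subunit genes that are not tissue-restricted isoforms rose at TMM scaling, by 0.45 to 1.43 with a median of 0.63. Of these 10, 9 were called higher with library totals, 9 by exon union and 7 by main transcript. Cox4i1, the common isoform of the largest nuclear subunit, read 1067, 1107 and 1185 CPM in wild type and 1581, 1686 and 1665 in SKO (0.55, SE 0.09, edgeR adjusted p = 0.000303). Among subunits with no isoform partner here, Cox5b, which binds zinc on the matrix side, rose by 0.81, Cox6c by 0.79, Cox7c by 0.55 and Cox5a by 0.53. Cox7b (ENSMUSG00000031231, chromosome X, 106015700 to 106022450), a small membrane subunit, rose most of the 10, from 49.9, 38.8 and 42.8 CPM to 112, 122 and 119 (1.43, SE 0.14, edgeR adjusted p = 7.67e-06). Genes of the X chromosome as a whole took 3.33 ± 0.0859% of counts in wild type and 4.28 ± 0.122% in SKO libraries (SD, n = 3 each), and the part of this in the Cox7b value was not tested.

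Testis isoforms differed from their common partners in direction or size. Cox8c (ENSMUSG00000043319, chromosome 12, 102899316 to 102900526), the testis form of the subunit Cox8a, read 111, 122 and 142 CPM in wild type and 40.7, 41.6 and 50.5 in SKO (log2 fold change −1.50, SE 0.14, edgeR adjusted p = 8.19e-06). Its partner Cox8a (ENSMUSG00000035885, chromosome 19, 7215153 to 7217616) went the other way, from 159, 167 and 164 CPM to 248, 267 and 280 (0.70, SE 0.10, edgeR adjusted p = 0.000184). Both genes separated the genotypes without overlap. Cox8c thus made up 48.6, 49.6 and 53.7% of Cox8 counts per kilobase of exon in wild type and 18.1, 17.4 and 19.6% in SKO.

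Cox6b2 (ENSMUSG00000051811, chromosome 7, 4751792 to 4753094), the testis form of a subunit that bridges the monomers of the complex IV dimer and faces cytochrome c, was also lower. It read 254, 233 and 281 CPM in wild type and 153, 166 and 170 in SKO (−0.65, SE 0.11, edgeR adjusted p = 0.000524). The common Cox6b1 (ENSMUSG00000036751, chromosome 7, 30616861 to 30626151) rose from 297, 305 and 273 CPM to 398, 404 and 390 (0.45, SE 0.10, edgeR adjusted p = 0.00313). The genotypes did not overlap for either gene, and Cox6b2 held 36 ± 3.51% of Cox6b counts per kilobase of exon in wild type and 20.8 ± 1.02% in SKO (SD, n = 3 each). The coding sequences of this pair match at 60.8% of aligned positions. A stretch of 102 coding bases from GENCODE vM21 transcripts, the same length in both, is shown because it holds 28 differences, given in capitals; it runs from coding base 31 to 132 in Cox6b1 and from 37 to 138 in Cox6b2.
Cox6b1: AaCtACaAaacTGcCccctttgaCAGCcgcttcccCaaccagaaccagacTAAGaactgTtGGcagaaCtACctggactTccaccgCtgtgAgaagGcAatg
Cox6b2: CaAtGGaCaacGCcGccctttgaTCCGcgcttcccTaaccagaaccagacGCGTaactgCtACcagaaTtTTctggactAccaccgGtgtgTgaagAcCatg
Over the pairs of common and restricted isoforms and the c-ring genes, coding identity ran from 51.3% (Cox8a and Cox8c) to 76.2% (Cycs and Cyct). Cox8b was not compared.

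The other testis forms, Cox7b2 and Cyct, were not lower in this fit. Cox7b2 (ENSMUSG00000049387, chromosome 5, 71442824 to 71548205) rose from 433, 403 and 528 CPM to 598, 722 and 778 (0.62, SE 0.12, edgeR adjusted p = 0.00186), less than Cox7b. It stayed the main form, at 95.8 ± 0.703% of Cox7b counts per kilobase of exon in wild type and 93 ± 0.647% in SKO (SD, n = 3 each). Cyct (ENSMUSG00000056436, chromosome 2, 76353942 to 76360450), the testis cytochrome c, overlapped between genotypes at 101, 112 and 141 CPM and 111, 136 and 119, and did not pass (0.05, SE 0.14, edgeR adjusted p = 0.851). It was below 0 with library totals and after both corrections for GC content and length given further on, and by main transcript it passed as lower (−0.43, edgeR adjusted p = 0.0338). Cycs (ENSMUSG00000063694, chromosome 6, 50562563 to 50566538), the common cytochrome c, rose from 659, 542 and 667 CPM to 1079, 1278 and 1637 (1.10, SE 0.14, edgeR adjusted p = 5.59e-05). The share of Cyct in cytochrome c counts per kilobase of exon was 44.4, 51.8 and 52.4% in wild type and 34.8, 35.6 and 27.4% in SKO.

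The ratio of each restricted isoform to its common partner was tested itself, in counts on the log2 scale, over 6 pairs. Cox8c over Cox8a differed by −2.19 between SKO and wild type, Cox6b2 over Cox6b1 by −1.10, Cyct over Cycs by −1.03 and Cox7b2 over Cox7b by −0.81. In all 4 testis pairs the 3 SKO ratios lay below the 3 wild type ratios (two-sided exact permutation p = 0.1, the smallest possible; 0.12 after adjustment), so none can pass a threshold of 0.05 in this design. All 7 common isoforms were higher in the edgeR test, against 1 of the 4 testis isoforms higher, 2 lower and 1 not passed. Of the 8 markers of pachytene and later stages, 4 could be tested: Ldhc, Piwil1 and Clgn were lower in the same SKO libraries and Tnp1 was higher (3.02, edgeR adjusted p = 0.0277). Tnp1 was rare, at 7, 10 and 0 counts in wild type and 44, 23 and 30 in SKO. It did not pass after either correction for GC content and length (edgeR adjusted p = 0.065 and 0.075). Leaving out a library took its edgeR adjusted p up to 0.118. Ldhc, the testis lactate dehydrogenase, read 54.3, 47.9 and 65.1 CPM in wild type and 9.46, 14.3 and 14.4 in SKO. The part of stage in the isoform ratios was not tested.

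**Figure D3:**
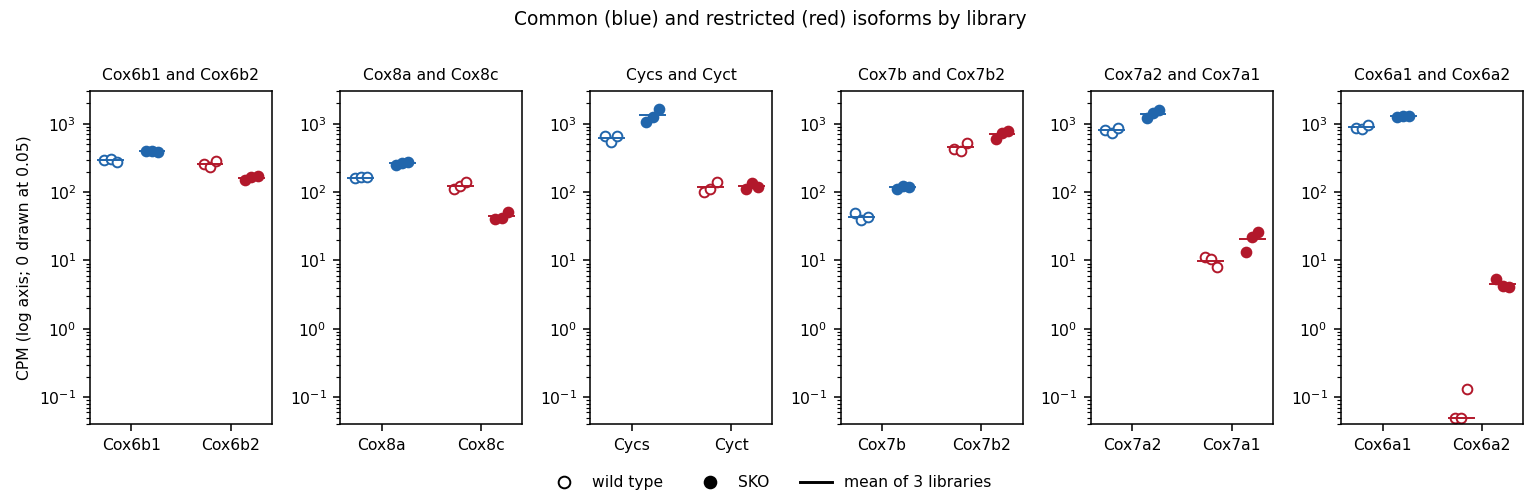
CPM (log axis) of common (blue) and restricted (red) isoforms; open circles are wild type libraries, filled circles SKO libraries and lines their means, with values of 0 drawn at 0.05. Cox6b2 and Cox8c are lower in every SKO library while Cox6b1 and Cox8a are higher, Cyct overlaps between genotypes while Cycs is higher, and Cox6a2 is near 0 in wild type.

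Isoforms known from heart and skeletal muscle were rare. Cox6a2 (ENSMUSG00000030785, chromosome 7, 128205435 to 128206387) had 0, 0 and 2 counts in wild type and 66, 45 and 43 in SKO replicates 1 to 3. Scaled by depth, the SKO level was 111 times the wild type level, with an exact 95% interval of 30.3 to 926 that covers counting error only. Cox6a2 passed the filter on low counts only through the SKO libraries. Its test (edgeR adjusted p = 0.000187) could thus hardly give a lower call and is no separate support. The fitted log2 fold change of 6.49 depends on the prior count. The SKO libraries were alike at 5.43, 4.19 and 4.14 CPM, yet Cox6a2 was still only 0.37 ± 0.0696% of Cox6a counts per kilobase of exon (SD, n = 3), beside Cox6a1 at 1241, 1280 and 1318 CPM. It overlaps Itgad, a gene on the other strand, over 10.3% of its exon length, and Itgad itself had 0, 0 and 1 counts in SKO. Cox7a1 (ENSMUSG00000074218, chromosome 7, 30184144 to 30186078) rose from 11.2, 10.5 and 8.12 CPM to 13.3, 21.7 and 25.8 (1.03, SE 0.28, edgeR adjusted p = 0.0136), and its partner Cox7a2 from 798, 736 and 874 CPM to 1201, 1446 and 1587 (0.81, SE 0.11). Cox7a1 lost its call without SKO replicate 2 (edgeR adjusted p = 0.0593) or 3 (0.086), and its share among Cox7a counts overlapped (2.16 ± 0.471% and 2.43 ± 0.452%, SD, n = 3 each; exact permutation p = 0.5). Cox4i2, the lung form, had 6, 7 and 0 counts in wild type and 0, 4 and 2 in SKO, and Cox8b had 0, 0 and 6 counts and then none, where 3 counts in a SKO library correspond to 0.247 to 0.289 CPM. A difference in these last genes was not detectable at this depth.

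The genes named like these subunits that are not part of the enzymes were Cox7a2l and Atp5s. Cox7a2l, which helps complexes III and IV to join in supercomplexes, rose from 225, 199 and 228 CPM to 311, 337 and 373 (0.65, SE 0.11, edgeR adjusted p = 0.000474). Atp5s, a coupling factor found with ATP synthase, overlapped at 120, 86.4 and 99 CPM and 89.4, 81.5 and 105 (−0.15, SE 0.15).

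The mitochondrially encoded partners of these complexes overlapped between genotypes, all 6 of them, and 0 passed edgeR's test (0 at an unadjusted p under 0.05, and 0 in DESeq2 or limma-voom). Apocytochrome b (mt-Cytb), the third redox subunit of complex III beside Cyc1 and Uqcrfs1, read 9664, 6952 and 8487 CPM in wild type and 7017, 10370 and 10990 in SKO (0.18, SE 0.15). The catalytic core of complex IV gave 0.09 (mt-Co1, SE 0.11), 0.15 (mt-Co2, SE 0.19) and 0.06 (mt-Co3, SE 0.21), and the ATP synthase subunits a and A6L gave 0.23 (mt-Atp6, SE 0.23) and 0.42 (mt-Atp8, SE 0.27). Without wild type replicate 1, which was the highest wild type library for all 6, mt-Co2, mt-Atp6 and mt-Atp8 passed at 0.46, 0.66 and 0.83, and without SKO replicate 1 mt-Cytb passed at 0.35. After either correction for GC content and length all 6 were below 0, and mt-Co1 passed as lower.

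Of 33 testable genes listed with the assembly factors, Atpif1 among them, 12 were higher (36.4%) and 6 lower (18.2%), with a median of 0.01. Over all tested genes 14.1% were higher and 14.4% lower. By main transcript 8 of the 33 were higher and 6 lower, beside 11.4% and 11% of all tested genes. With library totals 5 were higher and 9 lower, beside 7.5% and 23.5%. Higd1a, a hypoxia-inducible protein that binds complex IV, rose from 474, 421 and 458 CPM to 828, 928 and 1010 (1.03, SE 0.10, edgeR adjusted p = 8.81e-06), and Atpif1, the inhibitor protein of ATP synthase, from 137, 148 and 145 CPM to 269, 287 and 336 (1.05, SE 0.11, edgeR adjusted p = 1.67e-05). Cmc2, a factor for complex IV, rose by 0.70. Atpaf1, the chaperone of the F1 beta subunit, fell from 73.7, 56.7 and 51.2 CPM to 27, 30 and 30.3 (−1.06, SE 0.17, edgeR adjusted p = 0.00043). Cox11, which delivers copper to complex IV, and Cox18, which inserts a mitochondrially made subunit of it, fell by 1.32 and 0.88. Atpaf1 and its client Atp5b were thus both lower, and Atpif1, which acts on the same head, was higher. Atpaf2, a further assembly factor of ATP synthase, overlapped between genotypes and did not pass (0.12, edgeR adjusted p = 0.527). After the corrections for GC content and length given further on, Atpaf2 passed as higher (0.53 by exon union and 0.62 by main transcript). A relation between these genes was not tested.

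Of 10 testable transcription factors of nuclear respiratory genes or of mitochondrial DNA, 4 were higher and 1 lower. Over all tested genes 14.1% were higher and 14.4% lower. Tfam, which like Tfb1m and Tfb2m acts on mitochondrial DNA, was among the higher (0.45, edgeR adjusted p = 0.033). It did not pass after either correction for GC content and length or with library totals (edgeR adjusted p = 0.081, 0.146 and 0.367). Hif1a, the oxygen-regulated factor, rose from 51.4, 47.1 and 69.3 CPM to 112, 108 and 135 (1.08, SE 0.16, edgeR adjusted p = 0.000203). Yy1 (0.47), Gabpb2 (0.65) and Gabpb1 (−0.38) passed with all 6 libraries, and each lost its call when certain single libraries were left out: Yy1 without SKO replicate 2 or 3 or wild type replicate 1 or 2, Gabpb2 without any library but wild type replicate 2, and Gabpb1 without any but SKO replicate 1 (edgeR adjusted p up to 0.113, 0.071 and 0.188). The factors best known for these promoters, Nrf1 (−0.48, edgeR adjusted p = 0.081) and Gabpa (0.17, edgeR adjusted p = 0.301), did not pass at TMM scaling. With library totals Nrf1 passed as lower (−0.74, edgeR adjusted p = 0.0159), by main transcript it was at 0.02, and Gabpa turned below 0 under all 3 (−0.07 by exon union, −0.14 by main transcript and −0.10 with library totals), without passing.

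Core and accessory genes differ in length, and median fold changes varied with transcript length over the whole table, falling and then rising. Over 13452 genes Spearman's rho of the log2 fold change was −0.01 with main transcript length, which does not capture such a curve, and −0.35 with GC content, as descriptions across genes that share libraries. In 20 classes of tested genes by main transcript length, the median log2 fold change was 0.71 at a median length of 411 nt, 0.16 at 919 nt, −0.44 at 1814 nt and 0.19 at 9222 nt. The core genes had a median main transcript of 1442 nt (421 to 4715) and the accessory genes one of 578 nt (366 to 1604). Their median GC content was alike, at 51.1 and 50.8%. Of 26 accessory genes of at most 1200 nt, 24 were higher and 2 lower; of 5 core genes in that range 2 were higher (Atp5e and Atp5g2) and 1 lower (Atp5d). Above 1200 nt, 5 of 7 core genes were lower and Atp5g1 was higher, while both accessory genes, Uqcrq and Atp5f1, were higher. At nearly equal main transcript length, 1521 and 1520 nt, Uqcrq rose by 1.54 and Cyc1 fell by 1.27. Main transcripts were chosen from the annotation, and ties in rank went to the longest. Which transcripts these cells used was not tested, so these lengths, and corrections that use them, may be wrong for single genes such as Uqcrq or Atp5g1.

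**Figure D4:**
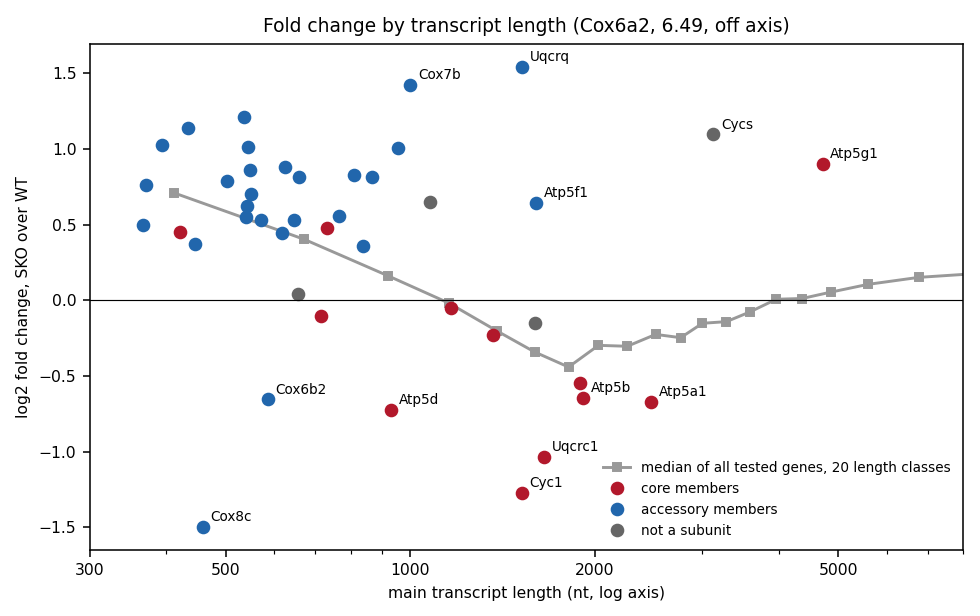
Log2 fold change (SKO over wild type) against main transcript length (log axis) for 43 testable genes; grey squares are medians of all tested genes in 20 length classes. Some short accessory genes and long core genes lie near the grey line. Uqcrq, Cycs, Cox7b, Atp5g1, Atp5f1, Uqcrb (1.21) and Atp5j2 (1.01) are among those above it. Cox8c, Cox6b2, Atp5d, Uqcrc1 and Cyc1 are among those below it.

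Correction for GC content and length made the contrast smaller without turning it. With the main transcript's values as offsets in edgeR, 18 of the 28 accessory genes were higher and 2 lower (median 0.46), and 2 of the 12 core genes were higher and 4 lower (median −0.19), beside 11.4% higher and 11% lower of all tested genes. With the union of exons in place of the main transcript, 22 accessory genes were higher and 2 lower (median 0.66), and 3 core genes were higher and 5 lower (median −0.19; 11.6% higher and 11.6% lower of all tested genes). The lower core genes included Atp5g3 by main transcript and Uqcrfs1 by exon union, neither of which was called before correction. In complex III, Cyc1 (−0.56 and −0.43) and Uqcrc2 (−0.55 and −0.51) passed both corrections, whereas Uqcrc1 passed only that by exon union (−0.53; −0.18 by main transcript, edgeR adjusted p = 0.281), as did Uqcrfs1 (−0.29, edgeR adjusted p = 0.0362; −0.16, 0.233). Uqcrq (1.77 and 1.74), Uqcrb (0.68 and 0.83), Uqcr10 (0.69 and 0.77) and Uqcrh (0.40 and 0.77) stayed higher, and Uqcr11 passed neither. In the F1 head, Atp5d passed neither (−0.36 and 0.03), Atp5a1 passed by main transcript (−0.33, edgeR adjusted p = 0.0391) and not by exon union (−0.29, 0.0643), and Atp5b the reverse (−0.21, 0.213; −0.55, 0.0085). Atp5e was at −0.04 by main transcript and 0.69 by exon union, so its direction depended on the correction. Of the isoforms, Cox8c (−1.94 by exon union) and Cox6b2 (−0.97 and −0.56) stayed lower and Cox8a, Cox7b and Cycs stayed higher, while Cox6b1, Cox7a1 and Cox7b2 (−0.04 and 0.03) passed neither correction. Cox5a (0.16, edgeR adjusted p = 0.188) and Cox7c (0.12, 0.424) did not pass by main transcript, and Atp5s passed there as lower (−0.44, 0.0185).

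Promoters were compared because many of these genes rose together. RefSeq on GRCm38.p6 gave the 250 bases upstream of the start for 34 of the 46 genes and for 15092 genes in all. The letters CCAAT, on either strand, stood in 19 of 34 (55.9%), in 35.9% of all promoters and in 37.4% of those of tested genes. The shares among the genes called higher (56%; 14 of 25) and lower (50%; 2 of 4) were similar. The ETS-type letters CCGGAAG stood in 7 of 34 (20.6%, beside 10.2% of all and 15.7% of tested genes). These were 7 of the 25 called higher and 0 of the 4 called lower. With 25 of the 34 called higher and only 4 lower, this count cannot set the directions apart. The NRF1-type letters GCATGCG stood in 5 of 34, Cox6a1, Atp5k, Atp5l, Atp5g2 and Cycs (14.7%, beside 4.27% of all and 6.43% of tested genes). The YY1-type letters AAGATGG were in 0 of the 34 windows and in 4.17% of all. All motifs were searched on both strands, and a window may hold several. The 4 promoters shown, 5′ to 3′ on the gene's strand, are those of a lower core and a higher accessory gene of complex III and of the Cox6b isoforms, with matches to the CCAAT and ETS-type letters on either strand in capitals.
Uqcrc1, chr9:108936398-108936647, plus strand: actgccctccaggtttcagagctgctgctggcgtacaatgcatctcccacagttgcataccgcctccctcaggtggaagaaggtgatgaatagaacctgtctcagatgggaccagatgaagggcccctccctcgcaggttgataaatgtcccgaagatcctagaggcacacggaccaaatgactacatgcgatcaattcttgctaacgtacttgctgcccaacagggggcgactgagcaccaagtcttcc
Uqcr10, chr11:4704345-4704594, minus strand: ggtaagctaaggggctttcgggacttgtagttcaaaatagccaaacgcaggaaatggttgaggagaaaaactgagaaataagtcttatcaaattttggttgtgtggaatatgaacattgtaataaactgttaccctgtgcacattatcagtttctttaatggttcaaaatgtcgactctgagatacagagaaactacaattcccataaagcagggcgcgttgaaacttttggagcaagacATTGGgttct
Cox6b1, chr7:30626115-30626364, minus strand: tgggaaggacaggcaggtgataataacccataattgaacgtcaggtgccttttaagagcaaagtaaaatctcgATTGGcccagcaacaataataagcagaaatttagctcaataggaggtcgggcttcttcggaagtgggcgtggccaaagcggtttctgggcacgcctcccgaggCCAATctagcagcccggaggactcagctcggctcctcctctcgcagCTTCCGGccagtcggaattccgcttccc
Cox6b2, chr7:4753095-4753344, minus strand: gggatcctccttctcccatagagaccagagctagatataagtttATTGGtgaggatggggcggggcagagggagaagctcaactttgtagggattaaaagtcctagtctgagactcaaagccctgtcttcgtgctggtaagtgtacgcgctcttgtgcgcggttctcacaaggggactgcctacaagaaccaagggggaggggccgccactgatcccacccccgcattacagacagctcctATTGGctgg
Uqcrc1 had no match to the 4 motifs, Uqcr10 had 1, Cox6b1 had 3 and Cox6b2 had 2; a match is a run of letters and not a site shown to be bound.

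Some of these genes share sequence with other loci. Near-identical copies (at least 95% identity over at least 80% of the coding sequence) were found for 15 of the 46, and the copies' own counts came to at most 6.85% of the gene's counts (Cycs), followed by 5.93% (Atp5l) and 3.96% (Cox5b). The sources used here do not say how reads were split between such copies, so small differences in these 15 genes are uncertain. Strand was not marked as far as the labels say, and exons overlapped another gene over 19.7% of the length of Uqcrc2 (Pdzd9, opposite strand), 18.1% of Atp5o and 12.7% of Atp5j (Gabpa), so reads there cannot be told apart.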

How the data were processed

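The libraries and groups are those described above; columns that name the knockout CKO were assigned to the SKO labels by replicate number. The authors deposited unnormalized read counts, 1 value per gene and library. Per the submitters' processing notes, the tools were FastQC, Trim Galore 0.6.4 and HISAT2 2.0.5, and the builds GRCm38 and mm10; which tool counted reads, and with which annotation and strand setting, the sources used here do not say. Symbols, exons and transcripts came from GENCODE vM21. The genes, role classes, lists and alternatives were chosen with earlier results of these data known, so counts are read against all tested genes and no list was tested. The fit used edgeR 4.0.16 (R 4.3.3): filterByExpr kept 13474 genes, TMM set the scaling, and the quasi-likelihood test (glmQLFit, glmQLFTest) had genotype as its term, was two-sided and was adjusted by Benjamini-Hochberg. CPM are TMM-scaled; a floor of 3 counts is 0.174 to 0.289 CPM, and intervals and floors cover counting error only, since reads carry no molecular identifiers. Shares and isoform ratios (0.5 counts added) were compared by two-sided exact permutation over libraries (SciPy 1.17.1). Coding copies were found with BLAST 2.17.0. GC content and length corrections used a loess trend (span 0.3) of each library as offsets; the main transcript was the best by APPRIS rank, the basic tag, support level and length, and this version was added after seeing the data. Alternatives were DESeq2 1.42.0, its size factors in edgeR, limma-voom (limma 3.58.1), library totals, no low-count filter, an adjusted p under 0.01, a replicate block and each library left out. Named in full were all core subunits, all genes of subunits with isoforms and, of the others, up to 5 called genes with the largest change in each direction; from the lists of assembly and transcription factors, up to 3 called in each direction by smallest p, and all 6 mitochondrial genes. The remaining genes are given by fold change. Nrf1, Gabpa, Tfam, Atpaf2, Uchl1, Stra8, Spo11 and the pachytene markers were named after their values were seen. No replicates were near-copies of each other (chi-square over its degrees of freedom from 12 to 22.2).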

Additional observations from a re-analysis of the deposited data

How the results depend on the processing

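The counts of higher and lower genes among the 44 stayed at 31 and 8 with DESeq2, limma-voom, DESeq2's size factors, no low-count filter and the replicate block, and were 30 and 8 at an adjusted p under 0.01. Leaving out a library gave 30 to 31 higher and 7 to 8 lower, and 1361 to 1916 higher and 1373 to 1851 lower over all genes. The replicate block gave 1976 and 1991 over all genes and changed the side of no named gene. Same-numbered libraries of the 2 genotypes did not deviate together (r = 0.02, −0.05 and 0.04), so the numbers were not taken as pairs.

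Library totals lowered every median: to 0.29 over the 44 genes, −0.64 (core), 0.51 (accessory), −1.04 and 0.87 (complex III core and accessory), 0.36 (complex IV), −0.34 and 0.53 (ATP synthase core and accessory) and −0.57 (testis isoforms); all genes split 1010 to 3168 and core genes had 1 higher. GC content and length by exon union gave −0.19 (core), −0.47 and 0.77 (complex III), 0.53 (complex IV), 0.65 (ATP synthase accessory) and −0.46 (testis isoforms), and turned the ATP synthase core median from −0.08 to 0.0108. By main transcript the medians were 0.28 (all 44), −0.19 (core), 0.46 (accessory), −0.36 and 0.68 (complex III), 0.34 (complex IV), 0.53 (ATP synthase accessory) and −0.70 (testis isoforms). The complex IV median ran from 0.54 to 0.72 when a library was left out.

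Isoform shares in points, SKO minus wild type, depended on length scaling. Without scaling they were −5.63 (Cox7b2), −28.9 (Cox8c), −7.41 (Cyct), 14.4 (Atp5g1) and 0.429 (Atp5g2); per kilobase of main transcript, an alternative chosen after seeing the data, 0.297 (Cox6a2), −17.9 (Cox6b2), 5.91 (Atp5g1), 5.24 (Atp5g2) and −11.2 (Atp5g3).

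Nuclear genes named in the text that turned under these settings were Atp5d (0.0334 by exon union), Atp5e (−0.0411), Cox7b2 (−0.0402), Atp5mpl (−0.09) and Nrf1 (0.02) by main transcript, Gabpa (−0.07, −0.14 and −0.10 by exon union, main transcript and library totals) and Cyct (−0.22 with library totals, −0.36 by exon union, −0.43 by main transcript, −0.0551 to 0.20 leaving out a library). With library totals, exon union and main transcript in turn, mt-Cytb was at −0.0919, −0.28 and −0.29, mt-Co1 at −0.18, −0.29 and −0.24, mt-Co2 at −0.11, −0.34 and −0.41, mt-Co3 at −0.20, −0.41 and −0.47, and mt-Atp6 at −0.0344, −0.38 and −0.44; mt-Atp8 was at −0.39 and −0.42 under the last 2. Leaving out a library gave mt-Co2 from −0.0008 to 0.46 and mt-Co3 from −0.10 to 0.42. Of the nuclear genes, Atpaf2 also turned, to −0.13 with library totals, without passing. With library totals, Atp5c1, Atp5g3, Uqcrfs1, Atp5s and Nrf1 passed as lower. Calls were lost there by Atp5e, Atp5g2, Atp5o, Uqcr11, Cox6b1, Cox7a1, Yy1, Gabpb2 and Tfam. The cause of these shifts was not tested. Depth limited the genes below the filter.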
